A study of Mus musculus with 6 samples.

Results

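Proteasome genes were examined in RNA of mouse hippocampus, with 3 libraries in the CerM group and 3 in the vehicle group. A gene was a member if its symbol was Psm followed by a letter from a to g and a number, which selected 48 of the 55414 genes in the table. The labels spell out neither CerM nor its dose, route or duration, and give no strain, sex or age, so the groups are described by treatment and tissue only. They call the samples biological replicates but do not state that every library is a different animal, and p-values here reflect only the variation among these 6 samples. The study concerns ceramides, corticosterone-induced depression and mitochondria, and the comparison asks how hippocampal gene expression differs between CerM and vehicle.

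The proteasome is the protease that degrades most ubiquitin-tagged proteins in the cell. Its 20S core is a barrel of an outer alpha ring and an inner beta ring on each side, and the beta subunits encoded by Psmb5, Psmb6 and Psmb7 hold the active sites. The 19S cap binds the ubiquitin chain, unfolds the substrate with a ring of ATPases and feeds it into the core. Interferon induces Psmb8, Psmb9 and Psmb10, whose products replace the constitutive catalytic subunits in the immunoproteasome, a form abundant in immune cells and low in neurons. Other activators can cap the core in place of the 19S particle, and dedicated chaperones assemble both parts.

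By role, 7 members encode the alpha ring, 7 the constitutive beta ring, 3 the immunosubunits, 6 the 19S ATPases and 11 the other 19S subunits. A further 3 encode assembly chaperones of the 19S cap, 4 assembly chaperones of the 20S core, 4 activators and 1 an inhibitor. Psma8 and Psmb11 encode 20S subunits particular to testis and thymus. Levels are in TPM, in which reads are scaled by transcript length and by the library's total. The test covered 46 members and left out Psma8 and Psmb11, whose means over the 6 libraries were below the minimum of 1 TPM.

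None of the proteasome genes passed the test. limma called 0 of 46 members at a Benjamini-Hochberg adjusted p below 0.05, where it called 0% of all 14916 genes tested. At an unadjusted p below 0.05 there were 3 members, Psme2, Psma4 and Psmb1, all lower in CerM, against a background of 1.62% of genes lower, 1.07% higher and 2.7% either way. Most members shared a direction: 38 of 46 had a log2 fold change below 0, where 41.2% of all tested genes did. In 13 members all CerM values lay below all vehicle values, and in 0 did they lie above, where the background is 4.04% of genes lower, 3.26% higher and 7.3% either way. Of the 847 genes in both the shortest quintile of transcript length and the highest quintile of TPM, 84.3% lay below 0. In 22.9% of those 847, which include 19 of the 46 members, all CerM values lay below all vehicle values. Log2 fold changes are given ± SE from limma, on the log2(TPM + 1) scale. Their median was −0.09 over the 46 members and 0.03 over all tested genes. Differences were small, and for 43 of the 46 members the 95% confidence interval of limma lay within 1.5-fold either way, as it did for 63.7% of all tested genes. Together the members held 0.502% ± 0.0125 of all TPM in CerM libraries and 0.540% ± 0.0063 in vehicle libraries (mean ± SD of 3). RNA from whole tissue was measured, so fewer cells of a type and less RNA per cell cannot be told apart.

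**Figure D1:**
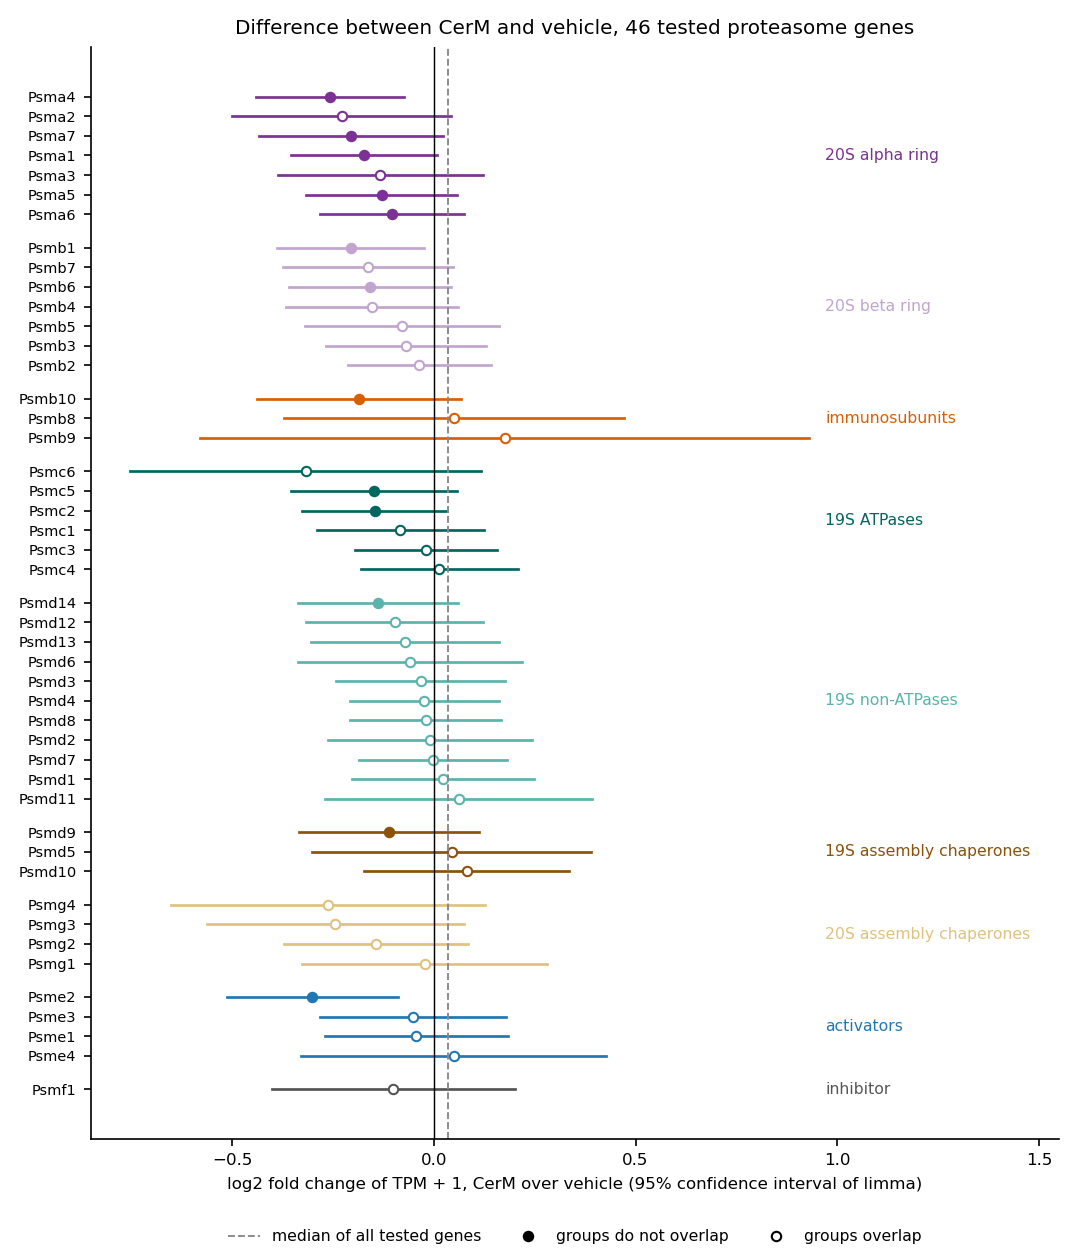
Log2 fold change of TPM + 1, CerM over vehicle, for the 46 tested members by class, with 95% confidence intervals from limma. Filled circles mark the 13 members whose groups do not overlap, all of them left of 0, and the dashed line is the median of all tested genes at 0.03.

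The libraries also differed within groups in markers of other tissues. Fat tissue markers (7 genes) summed to 810 TPM in CerM replicate 3 and to between 0.87 and 2.33 TPM in the other 5 libraries. Neocortex markers (8 genes) summed to 449 TPM in vehicle replicate 1 and to between 206 and 218 TPM elsewhere. Choroid plexus markers (8 genes) were high in CerM replicates 1 and 3 and in vehicle replicate 3, at 10123, 11945 and 16996 TPM, against 347 to 435 TPM in the other 3. Hippocampal neuron markers (10 genes, all detected) summed to 498 to 544 TPM in CerM and 368 to 583 TPM in vehicle. The lowest sum, 368 TPM, was that of vehicle replicate 1, although Calb1 was highest in that library. Of these lists the genes with the smallest p were Cidec (2.12 ± 1.18), Fezf2 (−0.28 ± 0.12), Clic6 (1.39 ± 1.27) and Calb1 (−0.19 ± 0.10), and among pan-neuronal markers Snap25 (−0.23 ± 0.13), none of them called. No label names a batch, and the part of these differences in the results was not tested.

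The 20S core pointed lower in CerM as a whole, although none of its genes passed the test. All 14 had a log2 fold change below 0, with a median of −0.16, and in every one the lowest of the 6 libraries was a CerM library and the highest a vehicle library. The same held for 23% of all tested genes, for 30 of the 46 members and for 65.1% of the 847 genes in both the shortest quintile of transcript length and the highest quintile of TPM. Vehicle replicate 1, the library with the highest neocortex markers, was the highest in 7 of the 14 core genes. Summed over the 14 genes, TPM was 2394, 2450 and 2347 in CerM replicates 1 to 3, against 2657, 2661 and 2630 in vehicle replicates 1 to 3. The groups did not overlap, and the mean differed by −9.51%. Of the 14 genes, 7 had groups that did not overlap, all with CerM lower, 5 in the alpha ring and 2 in the beta ring. That held for 4.04% of all tested genes and for 22.9% of the 847 short and abundant genes. An unadjusted p below 0.05 was reached by 2 of the 14, both lower in CerM, where 1.62% of all tested genes were.

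The alpha ring forms the gate through which substrates enter. Psma4 had the smallest p among its genes, at 169, 169 and 185 TPM in CerM against 205, 208 and 212 TPM in vehicle. Every CerM library lay below every vehicle library by more than the spread within either group, with a log2 fold change of −0.26 ± 0.08 (SE, unadjusted p = 0.0125, adjusted p = 0.989). Psma1 showed the same order at 141, 132 and 143 TPM in CerM against 160, 156 and 153 TPM in vehicle, with a log2 fold change of −0.17 ± 0.08. Psma7, the most abundant gene of the ring, averaged 204 ± 22.4 TPM in CerM and 235 ± 3.79 TPM in vehicle (SD). In Psma7 one CerM library, at 228 TPM, came close to the lowest vehicle library at 230 TPM, so the separation there was slight. Psma5 was nearly constant in CerM, at 91.1 ± 0.09 TPM, and averaged 99.8 ± 4.87 TPM in vehicle. Psma6 averaged 170 ± 5.60 TPM in CerM and 183 ± 5.62 TPM in vehicle, again with no overlap. Psma2 and Psma3 pointed the same way with overlapping groups, at log2 fold changes of −0.23 ± 0.12 and −0.13 ± 0.11.

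Psma3 has a copy that bears on its value. The table gives Gm13835, a processed pseudogene identical to the Psma3 transcript over 665 aligned bases, 49.5, 34.1 and 63.6 TPM in CerM and 56.9, 75.3 and 43.3 TPM in vehicle. Psma3 itself stood at 109, 93.2 and 98.1 TPM in CerM and 123, 106 and 101 TPM in vehicle. The pseudogene accounted for 26.8% to 39.3% of their sum in CerM and 30.1% to 41.6% in vehicle. Summed, both gave 149 ± 18.9 TPM in CerM and 168 ± 20.99 TPM in vehicle, with overlap between the groups. How reads were shared between them is not given in the sources used here, so the level of Psma3 is uncertain. Of the 16 same-strand copies found for 10 members, the other 15 were below 1 TPM in every library. Among them is Psme2b, 99.4% identical to Psme2, which reached at most 0.14 TPM.

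In the beta ring, Psmb1 encodes a non-catalytic subunit and had the smallest p, at 132, 124 and 133 TPM in CerM against 154, 145 and 150 TPM in vehicle. Its groups did not overlap, and its log2 fold change was −0.21 ± 0.08 (SE, unadjusted p = 0.0312, adjusted p = 0.989). Log2 fold changes of the catalytic genes lay within 1 SE of each other. Psmb6, for the caspase-like site, had 259, 280 and 239 TPM in CerM against 287, 283 and 297 TPM in vehicle, a log2 fold change of −0.16 ± 0.09 with no overlap. Psmb7, for the trypsin-like site, had 212, 218 and 206 TPM in CerM against 257, 242 and 215 TPM in vehicle, a log2 fold change of −0.16 ± 0.09. Its groups touched, because CerM replicate 2 lay above vehicle replicate 3. Psmb5, for the chymotrypsin-like site and the target of proteasome inhibitor drugs, had 266, 262 and 235 TPM in CerM against 238, 287 and 283 TPM in vehicle. Here vehicle replicate 1 sat among the CerM libraries, and the log2 fold change was −0.08 (95% confidence interval −0.32 to 0.16). Psmb4 was at −0.15 ± 0.09, Psmb3 at −0.07 ± 0.08 and Psmb2 at −0.04 ± 0.08, all with overlap.

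Promoters of 40 members were available from RefSeq (build GRCm38.p6, not the GRCm39 of the table), in 43 windows of 250 bases before a transcription start. They were searched on both strands for TGACNNNGC, the element bound by the Nfe2l1 product, for CCAAT, bound by NF-Y, for GAAANNGAAA, an interferon-type element, and for the GC box GGGCGG. Of the 43 windows, TGACNNNGC was in 11.6% against 10.2% of all 32851 RefSeq windows used, and CCAAT in 32.6% against 33.8%. GAAANNGAAA was in 7.0% against 3.0%, which is 3 windows (Psmb3, Psmd4 and Psmd9), and GGGCGG in 53.5% against 32.7%. A match is a description of letters, not a binding site. Windows are shown for Psma4, which had the smallest p of the core, for the catalytic genes Psmb5 and Psmb6, and for the immunosubunit gene Psmb9, with matches to any of the motifs in capitals:
Psma4 promoter, chr9:54950609-54950858, plus strand: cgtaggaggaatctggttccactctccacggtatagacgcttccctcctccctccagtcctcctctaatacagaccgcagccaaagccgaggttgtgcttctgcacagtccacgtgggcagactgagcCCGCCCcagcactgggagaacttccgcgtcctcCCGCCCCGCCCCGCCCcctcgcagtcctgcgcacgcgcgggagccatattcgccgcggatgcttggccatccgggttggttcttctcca
Psmb5 promoter, chr14:54617996-54618245, minus strand: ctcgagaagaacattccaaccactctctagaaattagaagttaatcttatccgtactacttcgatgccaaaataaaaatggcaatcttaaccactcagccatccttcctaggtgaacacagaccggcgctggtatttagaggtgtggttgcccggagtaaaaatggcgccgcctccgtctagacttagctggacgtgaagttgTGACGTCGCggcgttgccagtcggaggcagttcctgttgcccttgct
Psmb6 promoter, chr11:70525107-70525356, plus strand: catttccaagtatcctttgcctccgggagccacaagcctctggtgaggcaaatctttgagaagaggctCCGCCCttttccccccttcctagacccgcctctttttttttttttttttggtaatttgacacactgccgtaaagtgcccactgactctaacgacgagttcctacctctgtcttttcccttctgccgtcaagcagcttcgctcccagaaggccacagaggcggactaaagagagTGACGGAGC
Psmb9 promoter, chr17:34187331-34187580, minus strand: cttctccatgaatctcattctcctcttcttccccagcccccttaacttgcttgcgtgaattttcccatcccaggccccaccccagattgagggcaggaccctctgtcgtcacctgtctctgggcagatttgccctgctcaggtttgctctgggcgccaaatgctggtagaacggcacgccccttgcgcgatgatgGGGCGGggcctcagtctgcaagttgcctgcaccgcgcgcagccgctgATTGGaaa
Psma4 holds 4 GC boxes, read on the strand opposite the gene, and 3 of them form a run in which neighbours share a base. Psmb5 and Psmb6 each hold 1 TGACNNNGC match, 47 and 9 bases before the start, and Psmb6 also holds 1 GC box. Psmb9 holds 1 GC box and 1 CCAAT match, and no GAAANNGAAA match. Among windows not shown, that of the immunosubunit gene Psmb8 holds no match to any of the motifs. A window of Psme2, the member with the smallest p of all, holds 1 GC box.

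**Figure D2:**
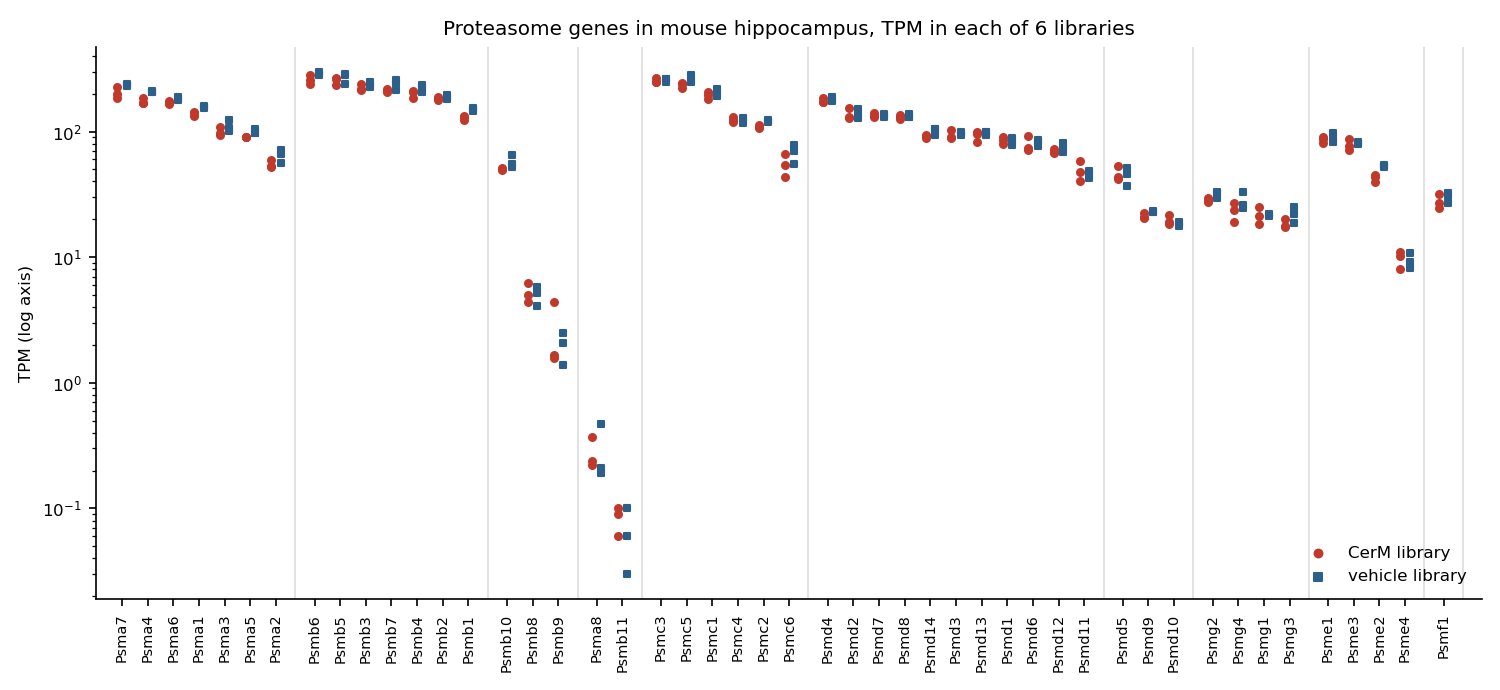
TPM of all 48 members in each of the 6 libraries on a log axis, CerM as circles left of vehicle as squares, with classes divided by vertical lines in the order alpha ring, beta ring, immunosubunits, tissue-restricted subunits, 19S ATPases, other 19S subunits, 19S chaperones, 20S chaperones, activators and inhibitor. Constitutive subunits lie between 40.6 and 297 TPM, and Psmb8 and Psmb9 lie below 7 TPM.

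RNA levels within the core were unequal. Averaged over the 6 libraries, Psmb6 was the most abundant member at 274 TPM and Psma2 the lowest core gene at 59.8 TPM, a 4.59-fold range. The beta ring spanned 1.96-fold and the alpha ring 3.67-fold. Psma8, which replaces an alpha subunit in the testis, stayed between 0.22 and 0.37 TPM in CerM and between 0.19 and 0.47 TPM in vehicle. Psmb11, the thymus subunit, stayed between 0.06 and 0.10 TPM in CerM and between 0.03 and 0.10 TPM in vehicle. Levels of core genes varied little within a group: the median coefficient of variation was 5.72% in CerM and 4.19% in vehicle for the core, against 13.8% and 12.8% for all tested genes. The 19S cap was alike at 5.33% and 5.72%, so low variation was not particular to the core.

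The 19S cap lay closer to vehicle than the core did. Its median log2 fold change was −0.03 over 17 genes, of which 14 lay below 0 and 3 had groups that did not overlap, with CerM lower. Over all tested genes those shares were 41.2% and 4.04%. In the highest quintile of TPM, which holds 16 of the 17, they were 60.4% and 9.72%. Summed TPM was 2117, 2166 and 2051 in CerM replicates 1 to 3, against 2248, 2168 and 2189 in vehicle replicates 1 to 3. All CerM sums lay below all vehicle sums, but CerM replicate 2 and vehicle replicate 2 differed by little. Unlike in the core, a CerM library was the highest of the 6 in 9 of the 17 genes, 7 times CerM replicate 2. The 19S median was −0.08 without that library, −0.01 without CerM replicate 1 and −0.01 without CerM replicate 3.

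The 19S ATPases had a median of −0.11, the other 19S subunits one of −0.02. Psmc2 had 109, 106 and 113 TPM in CerM against 124, 118 and 121 TPM in vehicle, a log2 fold change of −0.15 ± 0.08 with no overlap. Psmc5 was alike at −0.15 ± 0.09, averaging 235 ± 12.5 TPM in CerM and 261 ± 18.3 TPM in vehicle. Psmc6 had a log2 fold change of −0.32 ± 0.19, which was −0.17 without CerM replicate 2 and −0.21 without vehicle replicate 1. In the other direction, Psmc6 was at −0.47 without CerM replicate 1 and −0.46 without vehicle replicate 3. Its 66.1, 43.2 and 53.7 TPM in CerM overlapped the 78.1, 70.2 and 54.8 TPM in vehicle, and the unadjusted p was 0.13. Psmc1, Psmc3 and Psmc4 lay between −0.08 and 0.01. Among the non-ATPases, Psmd14 encodes the deubiquitinase that removes the ubiquitin chain before degradation. It had 93.5, 89.1 and 92.6 TPM in CerM against 105, 104 and 94.4 TPM in vehicle, at −0.14 ± 0.08 with no overlap, though vehicle replicate 3 was close. Psmd12, a scaffold subunit of the lid, had 72.9, 68.2 and 68.1 TPM in CerM against 81.0, 74.2 and 69.0 TPM in vehicle. It was at −0.10 ± 0.09, or −0.04 without vehicle replicate 1 and −0.15 without vehicle replicate 3. The ubiquitin receptor gene Psmd4 was at −0.02 (95% confidence interval −0.21 to 0.16), and the base subunit genes Psmd1 and Psmd2 were at 0.02 and −0.01. Psmd11, at 0.06 ± 0.14, had the highest value of the cap. Psmd13 abuts Sirt3, which shares 329 aligned bases with it on the opposite strand, and A730017L22Rik matches Psmd11 over 1501 bases on the opposite strand with 97.9% identity. Whether counting used strand is not given in the sources used here, so reads of these pairs may be mixed.

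Within each library the core was set against the cap as the mean deviation of the 14 core genes minus that of the 17 cap genes, on the log2(TPM + 1) scale. That difference was −0.045, −0.059 and −0.026 in CerM replicates 1 to 3 and 0.045, 0.057 and 0.028 in vehicle replicates 1 to 3. The core was thus lower relative to the cap in all CerM libraries than in all vehicle libraries, by 0.087 on average. No test was run on it, because the classes were chosen with earlier results of these data known.

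**Figure D3:**
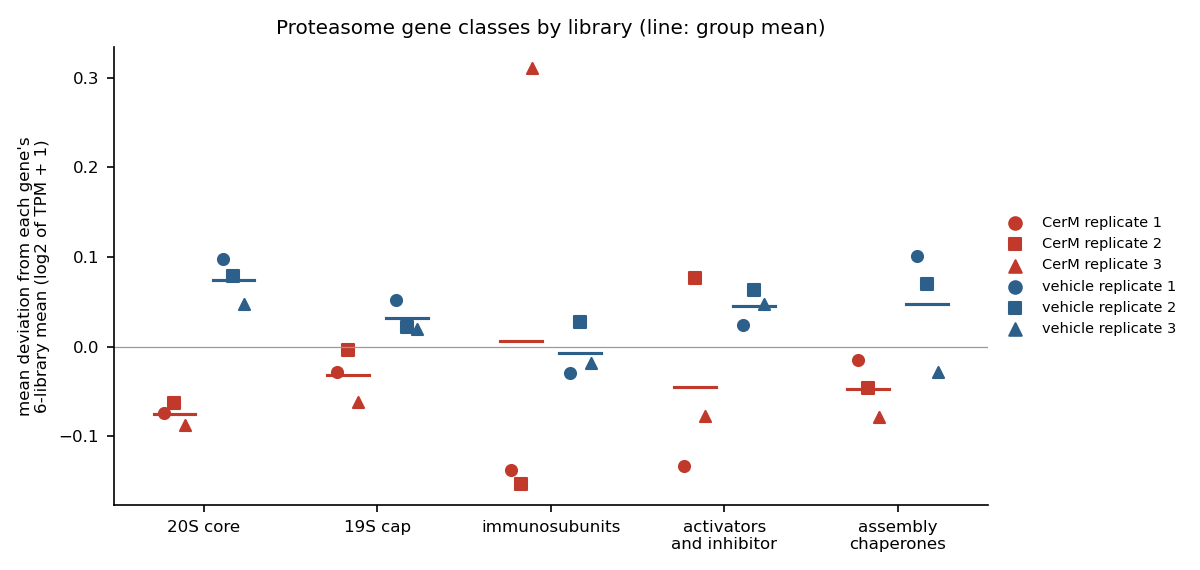
Mean deviation of each class from the genes' means over the 6 libraries, on the log2(TPM + 1) scale, for each CerM library (left in each pair) and vehicle library (right), with lines at group means. Both the core and the cap separate the groups without overlap, while the immunosubunits are set apart by CerM replicate 3 at 0.311.

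Transcript length and abundance moved with these differences across the whole table. Among all tested genes, the median log2 fold change was −0.06 in the quintile with the shortest transcripts (at most 1597 bases) and 0.09 in the quintile with the longest (5014 bases or more). Core genes are short, with a median of 1162.5 bases against 1819 for the cap and 3019 for all tested genes, and 11 of the 14 fall in the shortest quintile. All 14 also fall in the most abundant quintile. In the 847 genes that are in both the shortest and the most abundant quintile, 84.3% lay below 0, the median was −0.12 and 22.9% had non-overlapping groups with CerM lower. The 11 core genes among them had a median of −0.15, the 6 cap genes one of −0.07, and 9 of the 19 members there had non-overlapping groups. After a correction of each library for transcript length, chosen after seeing the data, the core median was −0.10 and the cap median −0.04, and Psmb5 stood at 0.01. Beyond these values, the part of transcript length in the result was not tested.

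**Figure D4:**
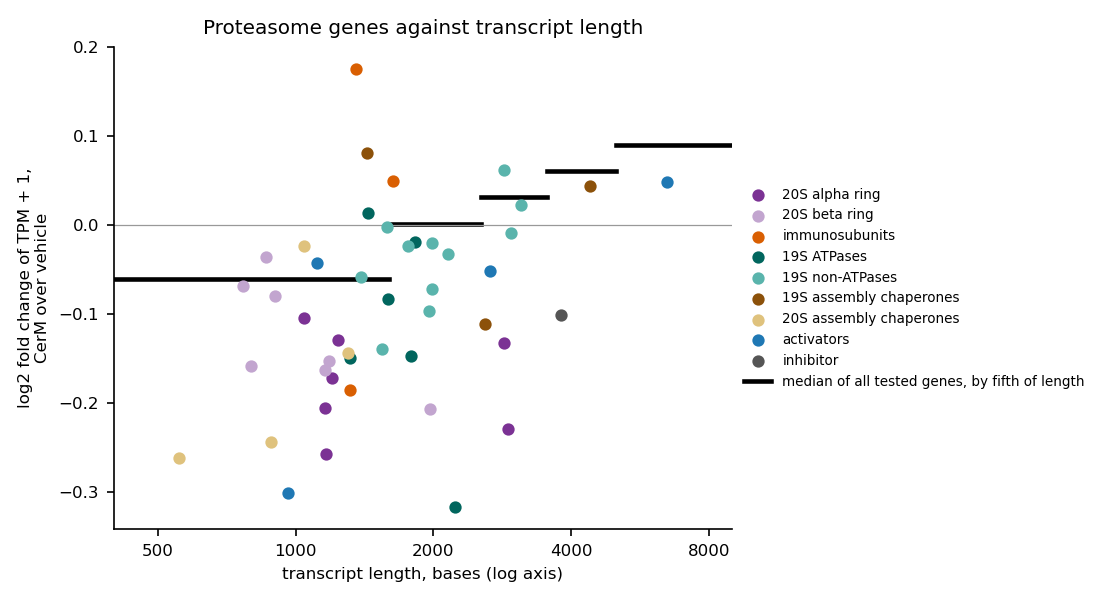
Log2 fold change of TPM + 1, CerM over vehicle, against transcript length on a log axis for the 46 tested members, coloured by class. Black bars show the median of all tested genes in each quintile of length, from −0.06 for the shortest to 0.09 for the longest, with the outer bars cut at the axis limits.

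The 3 immunosubunits had log2 fold changes of both signs, and none passed the test. Psmb10 was by far the most abundant at 49.0, 51.4 and 49.9 TPM in CerM against 65.2, 51.9 and 55.1 TPM in vehicle. Its groups did not overlap, by a margin of less than 1 TPM between CerM replicate 2 and vehicle replicate 2. Its log2 fold change was −0.19 ± 0.11 (SE), or −0.09 without vehicle replicate 1 and −0.25 without vehicle replicate 2. Psmb8 had 5.02, 4.39 and 6.22 TPM in CerM against 5.15, 5.76 and 4.08 TPM in vehicle. The groups covered each other, and its log2 fold change was 0.05 (95% confidence interval −0.37 to 0.47). Psmb9, the least abundant tested member, had 1.58, 1.66 and 4.36 TPM in CerM against 1.39, 2.06 and 2.49 TPM in vehicle, at 0.18 on the log2 scale (95% confidence interval −0.58 to 0.93). Both signs turned without CerM replicate 3, where Psmb9 stood at −0.17 and Psmb8 at −0.06, and Psmb8 also turned without vehicle replicate 3, at −0.06. The class median was 0.05 with all libraries, −0.17 without CerM replicate 3 and −0.06 without vehicle replicate 3. Summed TPM, most of it from Psmb10, was 55.6, 57.4 and 60.5 in CerM against 71.7, 59.7 and 61.7 in vehicle. Those sums overlapped, and their means differed by −10.1%.

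Each immunosubunit was also set against the constitutive subunit that it replaces, as a ratio within each library. Psmb8 amounted to 1.89%, 1.67% and 2.65% of Psmb5 TPM in CerM and to 2.16%, 2.01% and 1.44% in vehicle. Psmb9 amounted to 0.61%, 0.59% and 1.82% of Psmb6 in CerM and to 0.48%, 0.73% and 0.84% in vehicle. Psmb10 amounted to 23.1%, 23.6% and 24.3% of Psmb7 in CerM and to 25.4%, 21.4% and 25.6% in vehicle. In all pairs the groups overlapped. The log2 ratios differed by 0.13, 0.33 and −0.02 between CerM and vehicle in the order of the pairs, with two-sided exact permutation p = 0.6, 0.7 and 0.9 and 0.9 for each after adjustment over the 3 ratios. The smallest p that 3 against 3 libraries can give is 0.1. Over the 3 pairs, immunosubunits made up 7.403% ± 0.67 of the catalytic TPM in CerM and 7.48% ± 0.82 in the vehicle group (mean ± SD of 3).

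**Figure D5:**
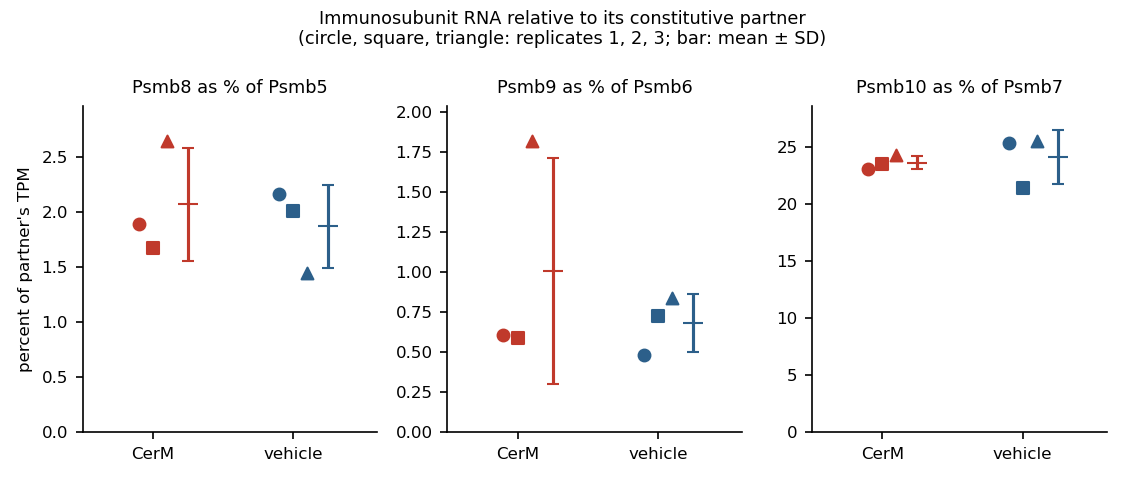
TPM of each immunosubunit as a percent of the TPM of the constitutive catalytic subunit it replaces, by library, with mean ± SD, for CerM (left) and vehicle (right). Psmb10 sits at 21.4% to 25.6% of Psmb7 in all libraries, and CerM replicate 3 is highest for Psmb8 and Psmb9.

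Lists of other interferon-induced genes had their highest sum in CerM replicate 3, although not every gene in them did. Among the members that interferon induces, Psmb10 was not high in that library, and Psme2 was lowest there at 39.9 TPM. Psmb8 and Psmb9 lie beside Tap1, a peptide transporter gene, in the major histocompatibility region of chromosome 17. Genes of MHC class I and antigen transport (8 genes) summed to 304, 293 and 502 TPM in CerM replicates 1 to 3 and to 292, 295 and 335 TPM in vehicle replicates 1 to 3. CerM replicate 3 was the highest library in 5 of the 8, among them B2m, H2-D1 and H2-K1, while Tap2 and Tapbp were highest in vehicle replicate 3. The member of that list with the smallest p was H2-K1, which encodes a classical MHC class I molecule, at 45.8, 38.0 and 88.2 TPM in CerM against 24.4, 28.3 and 38.8 TPM in vehicle (log2 fold change 0.82 ± 0.31, unadjusted p = 0.0327, adjusted p = 0.989). The H2-K1 groups overlapped. Interferon response genes (12 genes) summed to 52.0, 65.2 and 83.2 TPM in CerM and 50.9, 55.7 and 68.7 TPM in vehicle, with Irf9 at 0.42 ± 0.23 the smallest p. In 9 of the 12 CerM replicate 3 was highest, and Isg15, Stat2 and Gbp3 were highest in other libraries. The same library held the fat tissue markers, among them Cfd at 409 TPM, which is listed at 0 in the other 5 libraries. Microglia markers (12 genes) overlapped, at 444 to 528 TPM in CerM and 457 to 486 TPM in vehicle, with Aif1 at −0.33 ± 0.16. Endothelial markers (7 genes) summed to 215 to 273 TPM in CerM and 238 to 262 TPM in vehicle, with Cdh5 at 0.22 ± 0.21. Blood leukocyte markers (8 genes) summed to 1.25 to 4.01 TPM in CerM and 1.95 to 2.84 TPM in vehicle, with none of them reaching 1 TPM on average and Cd3e listed at 0 in CerM replicates 1 and 2. The part of other tissue or cells in the Psmb8 and Psmb9 values of CerM replicate 3 was not tested.

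Among the activators, Psme1 and Psme2 encode the subunits of the interferon-inducible ring, and they differed in their values. Psme2 had the smallest p of all members, at 45.4, 43.6 and 39.9 TPM in CerM against 53.3, 52.1 and 54.0 TPM in vehicle. All CerM libraries lay below all vehicle libraries, and the means differed by −19.1% (log2 fold change −0.30 ± 0.09 SE, unadjusted p = 0.0118, adjusted p = 0.989). Its partner Psme1, separated from it by Emc9 on chromosome 14, had 80.5, 90.2 and 87.9 TPM in CerM against 87.0, 82.9 and 96.9 TPM in vehicle. Those groups overlapped, and the log2 fold change was −0.04 (95% confidence interval −0.27 to 0.18). Psme3, for the nuclear activator that works without ubiquitin, averaged 78.6 ± 7.997 TPM in CerM and 81.3 ± 1.74 TPM in vehicle, at −0.05 ± 0.10. It was at 77.1, 87.3 and 71.5 TPM in CerM against 79.9, 80.7 and 83.3 TPM in vehicle, the CerM libraries lying on both sides of vehicle. Psme4, for a nuclear activator with a role in histone turnover, had 8.02, 10.98 and 10.3 TPM in CerM against 8.21, 10.8 and 9.13 TPM in vehicle, at 0.05 ± 0.16. Psmf1, named as a proteasome inhibitor, had 24.7, 31.9 and 26.8 TPM in CerM against 32.1, 30.4 and 26.8 TPM in vehicle, at −0.10 ± 0.13, or −0.02 without CerM replicate 1 and −0.20 without CerM replicate 2. Neither gene separated the groups.

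Assembly chaperones of the 20S core all lay below 0, with a median of −0.19 over 4 genes and no separated groups. Their transcripts are short, with a median of 963.5 bases. After the correction for transcript length, Psmg3 was at −0.16 and Psmg4 at −0.15. Psmg4 had 27.2, 19.1 and 23.5 TPM in CerM against 24.7, 33.3 and 26.1 TPM in vehicle, at −0.26 ± 0.17. It was at −0.13 without CerM replicate 2, −0.14 without vehicle replicate 2 and −0.38 without CerM replicate 1. Psmg3 had 20, 17.3 and 17.6 TPM in CerM against 25.03, 22.2 and 18.6 TPM in vehicle, at −0.24 ± 0.14. It was at −0.15 without vehicle replicate 1 and −0.35 without vehicle replicate 3. Both genes act in pairs, Psmg3 with Psmg4 and Psmg1 with Psmg2, in building the alpha ring, and in both the lowest vehicle library lay within the CerM range. Psmg2 was at −0.14 ± 0.10 and Psmg1 at −0.02 ± 0.13. The chaperones of the 19S ATPase ring were mixed. Psmd9 had 20.4, 22.3 and 20.9 TPM in CerM against 23.2, 22.9 and 22.9 TPM in vehicle, at −0.11 ± 0.10, with no overlap. Psmd10, also called gankyrin, had 18.9, 18.5 and 21.6 TPM in CerM against 19.2, 17.6 and 18.6 TPM in vehicle, at 0.08 ± 0.11, and Psmd5 was at 0.04 ± 0.15. In those last genes the groups overlapped.

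Partners of the proteasome outside the symbol rule passed no test either. Of 9 tested proteasome-bound factors 7 lay below 0 (median −0.09), where 41.2% of all tested genes did, with 0 called in either direction. Sem1, a small 19S subunit, had the smallest p at 34.1, 31.1 and 33.3 TPM in CerM against 46.3, 46.4 and 33.4 TPM in vehicle (log2 fold change −0.33 ± 0.14). Its groups overlapped, since vehicle replicate 3 lay among the CerM libraries. The 9 shuttle and segregase genes had a median of 0.02, with Nploc4 at 0.15 ± 0.14, and the 11 genes of ubiquitin activation and transfer one of 0.02, with Ube2n at −0.18 ± 0.08. All 5 genes for transcription factors of proteasome genes lay above 0 (median 0.11), as did 8773 of the 14916 genes tested (median 0.03). In 4 of the 5 the highest library was CerM replicate 2. Among the 5, Nfe2l1, whose product raises proteasome genes when the proteasome is inhibited, was at 0.05 ± 0.12. Nfe2l2 had the smallest p of the 5, at 0.30 ± 0.18. In each of these lists limma called 0 genes.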

How the data were processed

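RNA from hippocampus was sequenced in 6 libraries, 3 CerM and 3 vehicle, grouped and numbered by the sample titles. Per the labels' protocols, total RNA came from a TRIzol extraction with DNase I digestion, and libraries from a TruSeq kit. The deposited values are TPM with 1 column per library, and the submitters' processing notes name HISAT2, StringTie, RSEM and GRCm39 without versions or roles. TPM totals ran from 993379 to 995403, and since TPM keeps no depth, no counting interval was given.

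Genes with a mean of at least 1 TPM were tested with limma 3.58.1 (R 4.3.3) on log2(TPM + 1), with a variance trend, two-sided, adjusted by Benjamini-Hochberg over all 14916 genes. That scale understates the change of low genes. Ratios within a library were compared by exact permutation. Lengths and copies came from GENCODE M21 transcripts (GRCm38) by identifier and blastn 2.17.0 (at least 95% identity over 300 bases), and promoters from RefSeq, of which those on chromosome 18 were not used here. A gene's length was that of its longest protein-coding transcript, or of its longest transcript if none was protein-coding. That length can differ from the one used for TPM and from that of the transcripts expressed. Other software was Python 3.11.15, numpy 2.4.6, pandas 2.3.3 and matplotlib 3.10.9. The fit was tested on simulated data.

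The members, classes and gene lists were chosen with earlier results of these data known. Named in full were, per class, the 2 members with the smallest p, the catalytic subunits, immunosubunits, activators and the inhibitor. Members whose groups did not overlap, and the gene with the smallest p in each further list, were named as well; 1 further list is not reported here. Alternatives numbered 18, of which 2, a transcript length correction and leaving out 2 libraries together, were chosen after seeing the data.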

Additional observations from a re-analysis of the deposited data

How the results depend on the processing

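limma called 0 members under all 18 alternatives, with a smallest adjusted p of 0.214, reached with sample weights. That setting put 17 members at an unadjusted p below 0.05, 16 of them lower in CerM, against 3 in the reported fit. The count of members below 0 ran from 33 to 42. Over all genes, limma called 8 without CerM replicate 3, 1 without each of the other libraries and 1 without CerM replicate 3 and vehicle replicate 1 together, and 0 under the other alternatives.

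The 20S core median stayed below 0 under every alternative. It was −0.10 with quantile normalization, −0.19 with median-ratio scaling, −0.10 with the transcript length correction, −0.10 without CerM replicate 3 and vehicle replicate 1 together, and −0.19 to −0.12 with 1 library left out. The 19S cap median was −0.068 with median-ratio scaling and −0.081 to −0.0065 with 1 library left out. The immunosubunit median ran from −0.17 to 0.15 with 1 library left out, and was −0.090 without CerM replicate 3 and vehicle replicate 1 together, −0.068 with a minimum of 5 TPM, which drops Psmb9, and −0.035 with quantile normalization. The activator and inhibitor median ran from −0.13 without CerM replicate 2 to −0.023 without CerM replicate 1.

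The log2 ratio of Psmb8 to Psmb5 was −0.0089 with quantile normalization and −0.041 to 0.25 with 1 library left out. That of Psmb9 to Psmb6 ran from −0.067 to 0.55 with 1 library left out, was −0.21 without CerM replicate 3 and vehicle replicate 1 together, and has no value at a minimum of 5 TPM. That of Psmb10 to Psmb7 ran from −0.10 to 0.022 with 1 library left out.

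Among the members named in full, Psmb9 and 5 genes closer to 0 changed sign. Sign changes of the remaining members were not followed gene by gene. Some occurred, since 33 members lay below 0 with quantile normalization against 38 in the reported fit. Psmb8 was at −0.035 with quantile normalization, −0.041 without CerM replicate 3 and vehicle replicate 1 together, and −0.065 to 0.15 with 1 library left out. Psmb9 was at 0.45 with sample weights, −0.32 without both libraries and −0.17 to 0.36 with 1 left out. Psmb5 was at 0.00665 with the length correction. Psme1 was at 0.031 with sample weights, 0.0235 with the length correction and −0.091 to 0.020 with 1 library left out. Psme3 was at 0.0010 without both libraries and −0.13 to 0.013 with 1 left out. Psme4 was at −0.019 with quantile normalization, −0.093 with sample weights, −0.039 with the length correction, −0.073 without both libraries and −0.034 to 0.17 with 1 left out. The cause was not tested.

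The replicate numbers were taken as names only. Deviations from the group means correlated at 0.0083, 0.20 and 0.22 between same-numbered libraries and at −0.21 to 0.065 between others, across genes, so 1 of the 3 pairs was not over 0.1. Of the 6 libraries, 5 correlated best with their own number, a hint from the data and not from the design. With the number as a replicate block limma called 0 genes and 0 members, medians and the count of 38 members below 0 were as reported, the ratios differed by 0.13, 0.33 and −0.02, and 2 members had an unadjusted p below 0.05.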
